A study of Pseudotsuga menziesii with 75 samples.

Results

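WRKY proteins are a plant family of transcription factors, and their transcripts were followed here in the needles of adult Douglas-fir (Pseudotsuga menziesii) trees growing in the field. A contig, an assembled transcript sequence of the needle transcriptome, was taken as a member when its deposited description contained the word WRKY, and 42 of 59189 contigs did. The description alone chose them and no measured value was used. Needles grown in the year before sampling were taken from the sun-exposed south side of the upper crown, and 75 RNA-seq libraries came from 25 untreated trees in 2010. Clock times, recorded for 62 libraries, ran from shortly after noon to mid afternoon and differed in part between months. The trees belonged to 2 provenances, that is, seed origins: Salmon Arm in the interior of British Columbia and Cameron Lake near its coast. They grew at 2 sites in south-west Germany, Wiesloch in the lowland and Schluchsee in the mountains. Salmon Arm had 7 trees and 19 libraries at Wiesloch, and 6 trees and 18 libraries at Schluchsee. Cameron Lake had 5 trees and 19 libraries at Wiesloch, and 7 trees and 19 libraries at Schluchsee. May had 20 libraries, June 17, July 20 and September 18. Of the 25 trees, 11 had 4 libraries and the others fewer, so the months do not hold the same trees. Sampling took place on 1 day in each month at each site, 12 May, 16 June, 14 July and 8 September at Wiesloch and 27 May, 30 June, 28 July and 15 September at Schluchsee, so that a month or site cannot be told apart from its day and weather.

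WRKY factors carry the DNA-binding domain that gives the family its name, together with a zinc finger, and bind W boxes in the promoters of their target genes. They are divided into group I, whose members have a pair of WRKY domains, and groups II and III with a single one; group II is split further into subgroups a to e. In Arabidopsis they act downstream of immune receptors and mitogen-activated protein kinases, in salicylate and jasmonate responses, in leaf senescence, and in responses to drought and low phosphate. Many of their genes are themselves quickly induced by wounding or pathogens.

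Of the 42 contigs, 34 carried an Arabidopsis locus in the deposited annotation, and all 34 loci were WRKY genes (17 different ones). By locus, group I had 6 contigs matching 4 loci (WRKY1, WRKY4, WRKY20 and WRKY33). Subgroup IIb had 5 contigs matching 4 loci, IIc 15 contigs matching 5 loci, IId 5 contigs matching 2 loci and IIe 3 contigs matching 2 loci. No member had a locus of IIa or of group III, and 8 contigs had no locus. A locus is the nearest Arabidopsis match and not proof of a shared role, and locus and description often named different WRKY genes.

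Levels are given as CPM, a contig's count scaled to a fixed library size, which are not divided by contig length, so that a contig is compared with itself across libraries and not with other contigs. Library totals ran from 18.54 to 47.51 M counts, where M is 10 to the power of 6, with a median of 34.05 M. Mean CPM of the members ran from 0.305 to 54.5 with a median of 4.26, beside 2.84 over all contigs, and 32 members averaged more than 1 CPM. Of their 3150 values, 112 lay at or below the most frequent low value of the library, where the deposited file does not show how few reads are separated from none. The summed CPM of the 42 contigs had medians of 407, 380, 343 and 358 at Wiesloch from May to September, and of 434, 428, 395 and 355 at Schluchsee. The ranges of these sums overlapped between all months and between the sites, for example 308 to 431 at Wiesloch in July and 320 to 621 at Schluchsee in July. In bulk needle RNA, fewer cells of a type and less RNA per cell cannot be told apart.

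**Figure D1:**
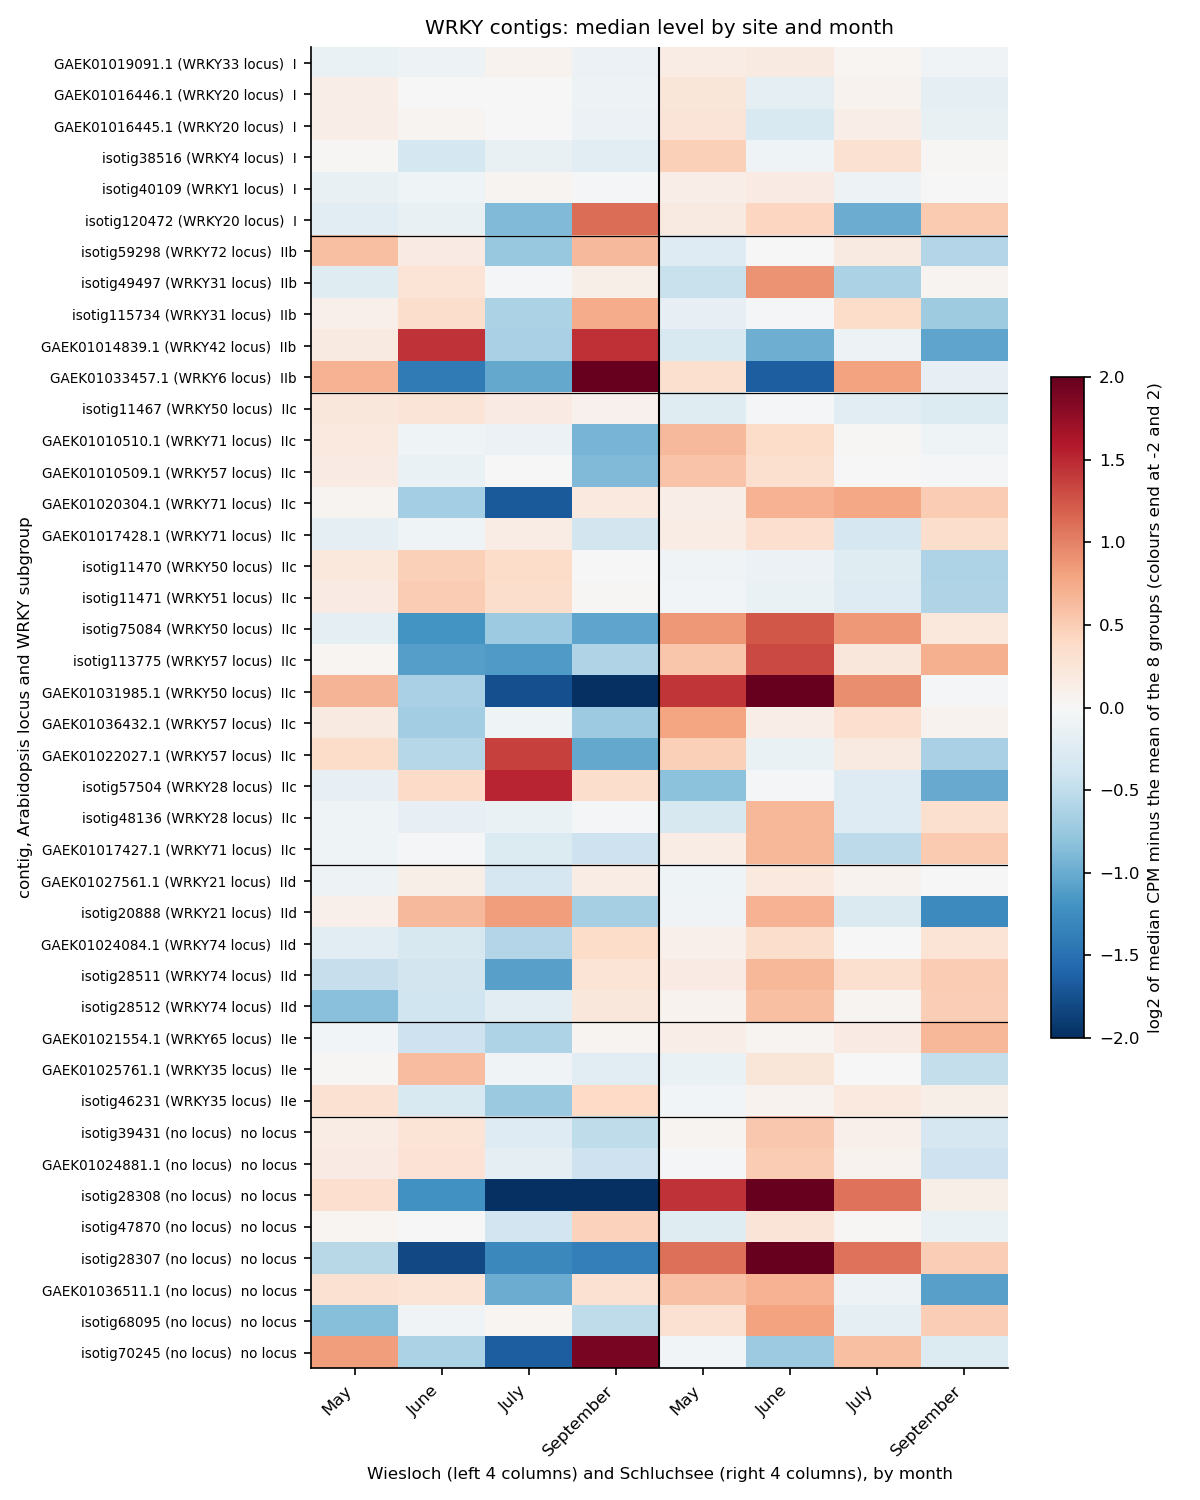
Median level of each of the 42 WRKY contigs in the 8 combinations of site and month, as log2 of the median CPM minus the mean over the 8 combinations, ordered by WRKY subgroup and mean level. Of the 6 group I contigs at the top, isotig120472 stands out with low July and high September medians at Wiesloch (0.721 and 2.89 CPM), and GAEK01033457.1 of subgroup IIb turns from blue in July to red in September at Wiesloch.

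Most WRKY contigs did not pass the test for a change from month to month, and the share that did was near that of all contigs or below it. A contig is called changed here at an adjusted p under 0.05, from edgeR's quasi-likelihood test with adjustment over all contigs tested. From May to June 2 rose, 4 fell and 36 did not pass, beside 19.0% of all 59177 contigs called (9.57% higher and 9.45% lower). From June to July none rose, 3 fell and 39 did not pass, beside 13.0% of all contigs (6.03% higher and 6.99% lower). From July to September 4 rose, 6 fell and 32 did not pass, beside 32.4% of all contigs (15.3% higher and 17.1% lower). From May to September 1 rose, 13 fell and 28 did not pass, beside 32.5% of all contigs (14.7% higher and 17.9% lower). The median log2 fold change from May to September was -0.14 for the members and -0.02 for all contigs.

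The libraries of a tree resemble each other, and with the tree as a block in the same fit more contigs passed. From May to June 6 members then rose and 8 fell (31.8% of all contigs), and from June to July 3 rose and 7 fell (21.8%). From July to September 6 rose and 11 fell (41.3%). From May to September the count was 19, of which 4 rose and 15 fell (43.5%), within 1.5 times the count without the block. The count of 3 from June to July dropped to 1 without Cameron Lake tree 16 at Wiesloch and to 1 without Salmon Arm tree 16 at Schluchsee.

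**Figure D2:**
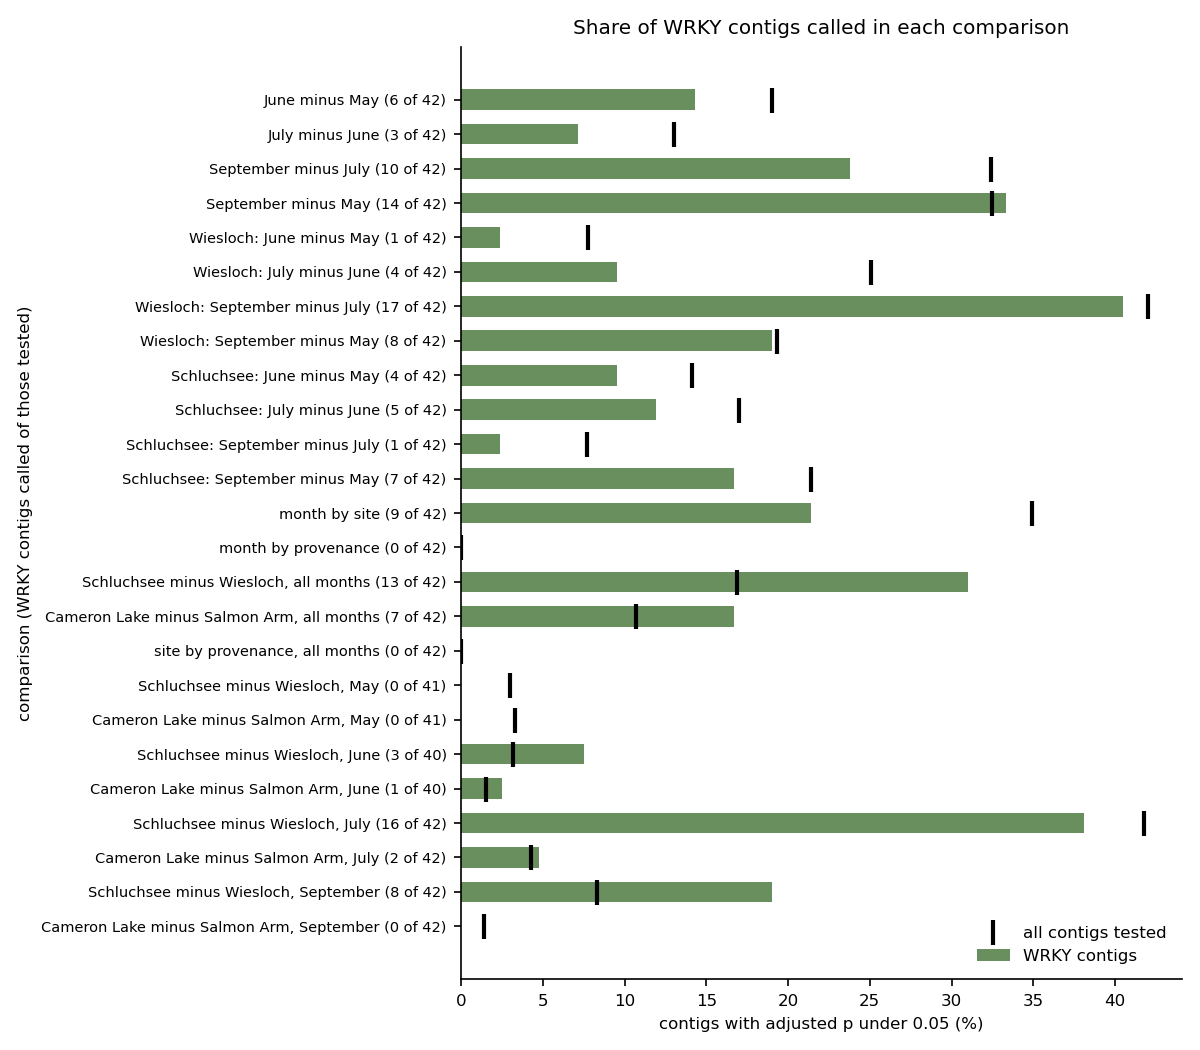
Share of the WRKY contigs tested with adjusted p under 0.05 (bars) and of all contigs tested (black ticks) in each of 25 comparisons, without the tree as a block; the horizontal axis is in percent. The bars lie at or below the ticks in most month comparisons and above them for site and provenance over all months, where 13 and 7 of 42 were called. Both of these counts include contigs that ran closely together, such as isotig11470 and isotig11471 (Pearson r = 0.95). With counts summed per Arabidopsis locus (25 units, not drawn) the calls were 4 and 2.

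In group I the contigs that passed from May to September were lower in September, and 1 other rose from July to September at Wiesloch. The contig of the WRKY33 locus, GAEK01019091.1, had medians of 41.3, 42.2, 47.5 and 41.6 CPM at Wiesloch in May, June, July and September and of 50, 51.3, 46.4 and 43 CPM at Schluchsee, within a range of 31.1 to 77.6 CPM over all libraries. WRKY33 in Arabidopsis is needed for resistance to necrotrophic fungi and for synthesis of the phytoalexin camalexin. Its contig fell from May to September by 0.16 on the log2 scale (SE 0.06, adjusted p = 0.042), a call lost when any of 21 of the 25 trees was left out and with the tree as a block (-0.13, adjusted p = 0.052).

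GAEK01016446.1, of the WRKY20 locus, had medians of 29.1, 26.6, 26.5 and 24.5 CPM at Wiesloch in the 4 months. At Schluchsee they were 31.4, 23.1, 27.8 and 23.4 CPM, and the May libraries there (27.6 to 41.4 CPM) all lay above the June libraries (19.6 to 26.1 CPM). From May to June it fell by 0.32 on the log2 scale (SE 0.07, adjusted p = 0.0012), and from May to September by 0.36 (SE 0.07, adjusted p = 8.1e-05). GAEK01016445.1, which has the same locus and description, ran in parallel over the 75 libraries (Pearson r = 0.95 as a description), and fell from May to June by 0.36 (SE 0.08, adjusted p = 0.00036). isotig38516 of the WRKY4 locus, in Arabidopsis a factor in resistance to necrotrophs, fell by 0.42 over both steps (May to June: SE 0.12, adjusted p = 0.0087; May to September: SE 0.12, adjusted p = 0.0051). With clock time as a covariate, in the 62 libraries that give it, the May to June call of GAEK01016446.1 was lost. A single Cameron Lake library then remains at Wiesloch in June, so clock time and fewer libraries cannot be told apart there. In all, 4 of the 6 group I contigs fell from May to September and none rose, beside 17.9% of all contigs lower; with the tree as a block 3 did, without GAEK01019091.1. Of the spread of isotig120472, of the WRKY20 locus, within groups of the same provenance, site and month, 86.4% lay between trees. Salmon Arm tree 16 at Wiesloch, its highest tree (5.02 CPM), was sampled only in September. isotig120472 rose from July to September at Wiesloch (log2 fold change 1.33, SE 0.52, adjusted p = 0.034), where its median went from 0.721 to 2.89 CPM in partly different trees. That value was 0.86 with the tree as a block (adjusted p = 0.0062), and the call was lost with clock time as a covariate (adjusted p = 0.3).

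In subgroup IId, whose members bind calmodulin in Arabidopsis, isotig20888 had the clearest seasonal course of the family. It matches the WRKY21 locus and is described as WRKY21-like. At Wiesloch its lowest, median and highest levels were 5.81, 7.65 and 11.3 CPM in May, 9.61, 11.2 and 13.6 CPM in June, 9.7, 12.8 and 19.1 CPM in July, and 3.07, 4.52 and 8.25 CPM in September. The July and September libraries there did not overlap. At Schluchsee the levels were 4.02, 6.79 and 9.63 CPM in May, 7.57, 11.6 and 17.1 CPM in June, 4.66, 5.86 and 7.85 CPM in July, and 1.99, 2.96 and 4.27 CPM in September. June was therefore the highest month at Schluchsee and July at Wiesloch by the median, and September the lowest at both. Over both sites isotig20888 rose from May to June (log2 fold change 0.62, SE 0.11, adjusted p = 1.3e-05), fell from June to July (-0.42, SE 0.11, adjusted p = 0.0049) and fell from July to September (-1.20, SE 0.11, adjusted p = 6.1e-14). These 3 calls held whichever single tree was left out.

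GAEK01027561.1, the member with the highest mean CPM, matches the same WRKY21 locus but did not follow this course. Its site and month medians ran from 40.5 CPM (Wiesloch, July) to 58.9 CPM (Schluchsee, June), the groups overlapped throughout, and its July to September log2 fold change was 0.08 (SE 0.13, adjusted p = 0.68). With the tree as a block GAEK01027561.1 rose from May to June (0.37, adjusted p = 0.0082). At Wiesloch it then fell from June to July (-0.55, adjusted p = 0.0053) and rose to September (0.51, adjusted p = 0.0051). Its course also differed between sites in that fit (adjusted p = 0.017). isotig28511 of the WRKY74 locus rose from July to September (0.67, SE 0.24, adjusted p = 0.027). By site, it passed over this step at Wiesloch (with the tree as a block 1.42, adjusted p = 3.1e-05) and not at Schluchsee. With the block its course differed between sites (adjusted p = 0.0047).

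In subgroup IIc the contigs that fell from May to September included a pair described as WRKY48-like. GAEK01010510.1, with the WRKY71 locus, had lowest, median and highest levels at Wiesloch of 22.1, 23.2 and 29.2 CPM in May, 11.8, 19.1 and 32.8 CPM in June, 14.6, 18.7 and 23.2 CPM in July, and 7.79, 10.7 and 21.8 CPM in September. Every May library at Wiesloch lay above every September library there. At Schluchsee it had 21.5, 31.9 and 63.5 CPM in May, 12.4, 26.2 and 40.8 CPM in June, 12.8, 20.6 and 40.1 CPM in July, and 12, 19.1 and 23.4 CPM in September, where May and September overlapped. It fell by 0.94 on the log2 scale from May to September (SE 0.13, adjusted p = 1.4e-08). GAEK01010509.1, whose locus is WRKY57, tracked it (Pearson r = 0.98 over the libraries) and fell by 0.93 (SE 0.13, adjusted p = 1.9e-08). In Arabidopsis WRKY71 affects shoot branching and flowering, WRKY57 drought tolerance, and WRKY48 acts against basal defence.

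isotig57504, of the WRKY28 locus (an activator of salicylate synthesis in Arabidopsis), fell from July to September by 1.02 on the log2 scale (SE 0.27, adjusted p = 0.0024). isotig11470, of the WRKY50 locus, fell by 0.32 over the same step (SE 0.12, adjusted p = 0.026) and by 0.42 from May (SE 0.12, adjusted p = 0.0034). GAEK01031985.1, also of the WRKY50 locus, fell by 2.11 from May to September (SE 0.60, adjusted p = 0.0045), a call lost with clock time as a covariate (-1.60, adjusted p = 0.067). The July to September call of isotig11470 was lost without the 3 libraries whose lowest value is 4 (adjusted p = 0.064). isotig11467, the IIc contig with the highest mean CPM and again of the WRKY50 locus, lay between 15.2 and 89 CPM and passed in none of the month comparisons. In all, without the tree as a block, 4 of 15 IIc contigs fell from May to September and none rose, beside 32.5% of all contigs called (17.9% lower). With the block isotig11471 (-0.31, adjusted p = 0.009) and GAEK01036432.1 (-0.54, adjusted p = 0.015) also fell. GAEK01017427.1 of the WRKY71 locus then rose (0.55, adjusted p = 0.038), beside 43.5% of all contigs called.

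The only contig that passed as higher in September than in May, without the tree as a block, belonged to subgroup IIe. GAEK01021554.1 has the WRKY65 locus and is described as WRKY14-like. Its lowest, median and highest levels at Wiesloch were 9.17, 13.8 and 18.3 CPM in May, 6.89, 10.7 and 13 CPM in June, 7.55, 9.37 and 11 CPM in July, and 9.93, 14.9 and 19.7 CPM in September. At Schluchsee they were 7.98, 15.6 and 23.2 CPM in May, 7.27, 14.9 and 22 CPM in June, 13.8, 16.1 and 31.4 CPM in July, and 14.8, 22.7 and 29.2 CPM in September. At Wiesloch it dipped in July and came back in September, and at Schluchsee the September median was the highest of the year. It rose from July to September (log2 fold change 0.49, SE 0.12, adjusted p = 0.0007) and from May to September (0.33, SE 0.12, adjusted p = 0.025). The latter call was lost without 1 of the 25 trees, with clock time as a covariate (adjusted p = 0.095) and without the 3 libraries whose lowest value is 4 (adjusted p = 0.1). GAEK01025761.1, of the WRKY35 locus, rose from May to June (0.37, SE 0.14, adjusted p = 0.047), a call lost without any of 17 of the 25 trees. The call was also lost with clock time as a covariate, in a fit with a single Cameron Lake library at Wiesloch in June.

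Among the contigs without a locus, isotig39431 and GAEK01024881.1 are both described as WRKY7-like and had a Pearson r of 0.99 over the libraries. WRKY7 in Arabidopsis is a calmodulin-binding IId factor that restrains basal defence. isotig39431 fell by 0.45 from June to July (SE 0.14, adjusted p = 0.026) and by 0.47 from May to September (SE 0.14, adjusted p = 0.0079), and GAEK01024881.1 by 0.44 and 0.47 (adjusted p = 0.031 and 0.0085). Neither June to July call held with the tree as a block (-0.31 and -0.30, adjusted p = 0.066 and 0.075), whereas both calls from May to September did. With clock time as a covariate that of isotig39431 from May to September was lost (adjusted p = 0.065). By site, both contigs passed from May to September at Wiesloch (with the block -0.64 and -0.62, adjusted p = 0.0027 and 0.0031). Neither passed over that step at Schluchsee, with or without the block. With the block their courses differed between sites (adjusted p = 0.038 and 0.031). Values of such closely running contigs are uncertain one by one, because the authors' counting could split reads between near-identical contigs.

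**Figure D3:**
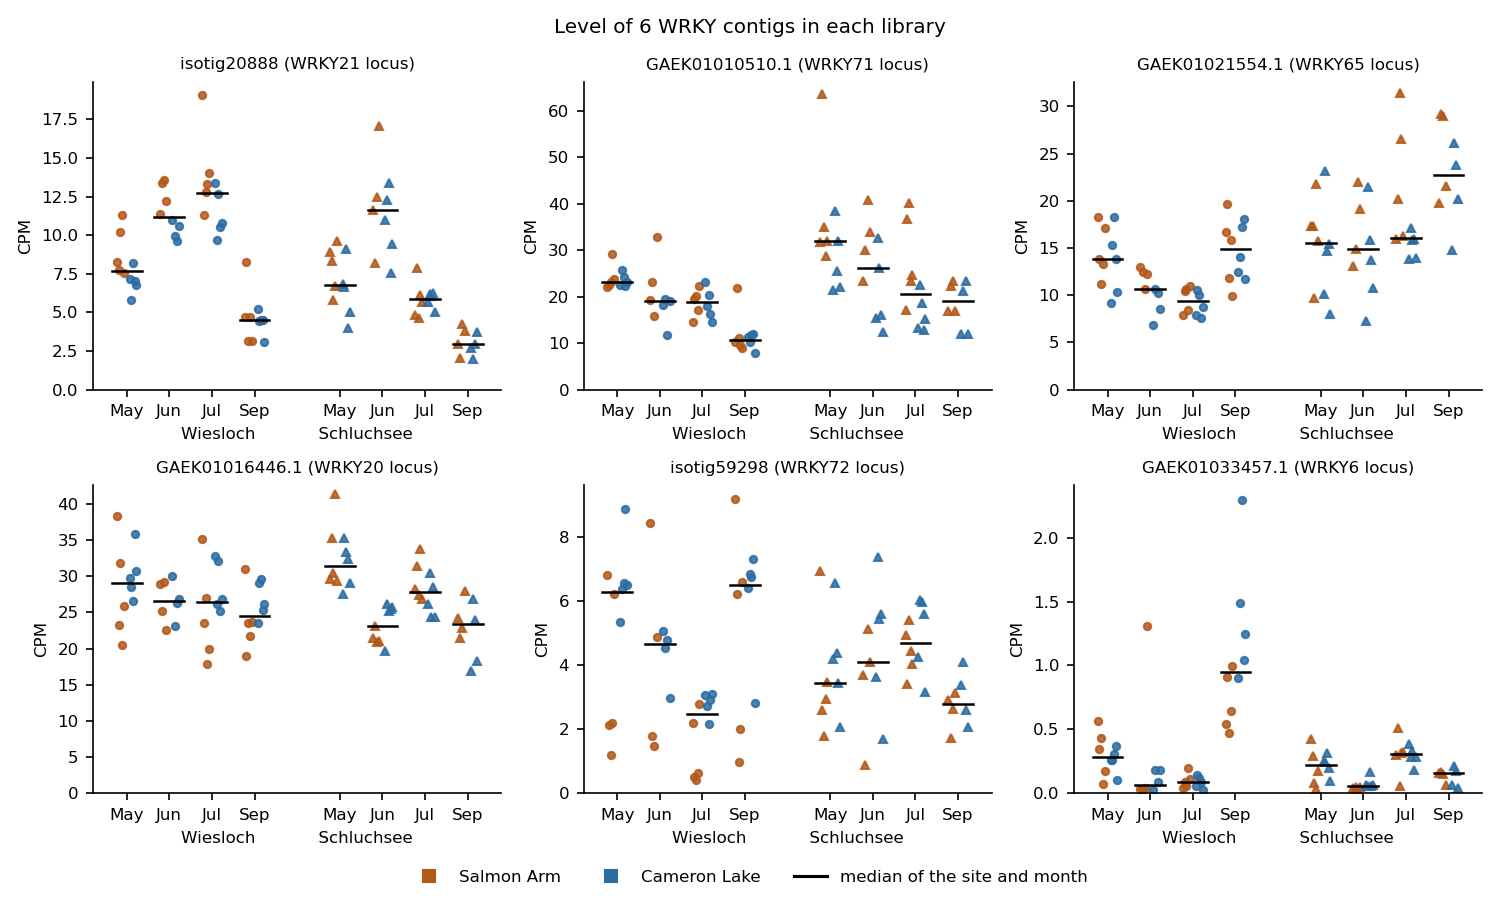
CPM of 6 WRKY contigs in each of the 75 libraries by site and month, orange for Salmon Arm and blue for Cameron Lake, with a black bar at the median of the site and month. isotig20888 is at or below 8.25 CPM in every September library, GAEK01010510.1 falls from May, and GAEK01033457.1 stands at 0.468 to 2.3 CPM at Wiesloch in September.

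Within each site the steps differed in size. At Wiesloch 1 contig rose from May to June and none fell, beside 7.77% of all contigs called (3.95% higher and 3.82% lower). From June to July 1 rose and 3 fell there, beside 25.1% (12.3% higher and 12.8% lower). From July to September 10 rose and 7 fell, beside 42.0% (20.2% higher and 21.7% lower), and from May to September 2 rose and 6 fell, beside 19.3% (8.82% higher and 10.4% lower). At Schluchsee 1 rose and 3 fell from May to June, beside 14.1% of all contigs (7.11% higher and 6.95% lower). From June to July 4 rose and 1 fell there, beside 17.0% (8.88% higher and 8.16% lower). From July to September none rose and 1 fell, beside 7.67% (3.76% higher and 3.91% lower), and from May to September 1 rose and 6 fell, beside 21.4% (10.5% higher and 10.8% lower). With the tree as a block the Wiesloch counts were 4 (17.3% of all contigs), 9 (35.8%), 21 (51.9%) and 15 (28.5%) in the same order, and the Schluchsee counts 12 (27.0%), 8 (23.9%), 8 (13.5%) and 12 (30.7%). Without the block, the count of 4 for the June to July step at Wiesloch became 1 without Cameron Lake tree 13, Cameron Lake tree 16 or Salmon Arm tree 9 of that site, and 2 without any of 8 other trees. It was 2 without a filter. Clock time left a single Cameron Lake library at Wiesloch in June, so the count of that step with this covariate cannot be compared. Clock time also took the count of 5 at Schluchsee from June to July to 10, and without the 3 libraries whose lowest value is 4 that of 7 from May to September was 4. At Schluchsee the count of 4 from May to June became 7 without Salmon Arm tree 12, and that of 5 from June to July became 3 without Salmon Arm tree 9, 12 or 14 there or Cameron Lake tree 16 at Wiesloch.

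Whether a contig's course over the months differed between the sites was tested in its own right, and 9 of 42 contigs passed (34.9% of all contigs). With the tree as a block 20 passed (46.8%), among them 6 of these 9; GAEK01014839.1, GAEK01019091.1 and GAEK01017428.1 did not. By subgroup and without the block, 4 of the 5 IIb contigs passed, 1 of 6 in group I, 1 of 15 in IIc, 1 of 5 in IId, 1 of 3 in IIe and 1 of 8 without a locus. With the block, 3 of these 4 IIb contigs passed. In IId GAEK01027561.1, isotig20888, isotig28511 and GAEK01024084.1 then passed. Without a locus isotig70245, isotig39431, GAEK01024881.1, isotig47870, isotig28307 and isotig28308 did, and so did contigs of group I, IIc and IIe. Courses that differed between sites were thus not particular to IIb. The course did not pass for a difference between provenances in any member. In that test, edgeR gave an unadjusted p under 0.05 for 2 of the 42, the tree block also called 0 of 42, and 2 of all 59177 contigs passed (0.00338%).

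Subgroup IIb holds WRKY6, which in Arabidopsis acts in senescence and represses phosphate export to the shoot, and WRKY42, WRKY31 and WRKY72, the last of which contributes to basal defence. GAEK01019153.1 (mean 93.5 CPM) and GAEK01036884.1 (12.3 CPM) also match the WRKY6 locus but have no WRKY in their descriptions, so they are not members. Their log2 fold changes from July to September at Wiesloch were -0.10 and -0.06. The member with the WRKY6 locus, GAEK01033457.1, had the lowest mean CPM of the members and the smallest adjusted p for a course that differed between sites (4.5e-07). At Wiesloch its lowest, median and highest levels were 0.0745, 0.284 and 0.564 CPM in May, 0.0253, 0.0654 and 1.31 CPM in June, 0.0245, 0.0857 and 0.194 CPM in July, and 0.468, 0.95 and 2.3 CPM in September. In raw reads the July libraries there held 1 to 6 and the September libraries 13 to 73, so that the groups did not overlap. At Schluchsee the levels were 0.0344, 0.218 and 0.427 CPM in May, 0.0276, 0.056 and 0.166 CPM in June, 0.0545, 0.306 and 0.511 CPM in July, and 0.0382, 0.156 and 0.215 CPM in September. The September rise was thus seen at Wiesloch, with a log2 fold change of 3.42 from July (SE 0.46, adjusted p = 7.9e-09) that rests on the low July reads. At Schluchsee the contig fell from May to June (-1.81, a call lost with clock time as a covariate, adjusted p = 0.061) and rose from June to July (2.29). Both steps rest on low June counts there, 1 to 7 per library with a median of 2, the most frequent low value in 72 libraries. The contig lay at or below that value of the library in 26 of the 75 libraries. The size of both steps is therefore uncertain.

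The June value of 1.31 CPM at Wiesloch came from Salmon Arm tree 15, and the other June libraries there had at most 0.181 CPM. Over both sites GAEK01033457.1 fell from May to June by 1.14 on the log2 scale (SE 0.34, adjusted p = 0.012), and by 1.99 without that tree. isotig70245, also described as WRKY6-like but without a locus, had medians of 0.391, 0.141, 0.0701 and 0.815 CPM at Wiesloch and 0.21, 0.132, 0.334 and 0.181 CPM at Schluchsee. Its adjusted p for a course that differed between sites was 1.4e-06, and it rose from July to September at Wiesloch by 2.86 on the log2 scale (SE 0.39, adjusted p = 1.5e-08). That rise also rests on low July counts, 1 to 11 per library at Wiesloch with a median of 2. isotig70245 lay at or below the most frequent low value of the library in 13 of the 75 libraries.

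isotig59298 of the WRKY72 locus is better measured. At Wiesloch its lowest, median and highest levels were 1.2, 6.31 and 8.89 CPM in May, 1.47, 4.67 and 8.45 CPM in June, 0.413, 2.46 and 3.11 CPM in July, and 0.973, 6.52 and 9.2 CPM in September. At Schluchsee they were 1.78, 3.46 and 6.95 CPM in May, 0.872, 4.11 and 7.39 CPM in June, 3.17, 4.71 and 6.05 CPM in July, and 1.72, 2.77 and 4.11 CPM in September. July was the lowest month at Wiesloch and the highest at Schluchsee by the median, and the July libraries of the sites did not overlap. At Wiesloch it fell from June to July (-1.15, SE 0.35, adjusted p = 0.011) and rose to September (1.52, SE 0.34, adjusted p = 0.00018). With clock time as a covariate the June to July value was -1.31, in a fit with a single Cameron Lake library there in June. The adjusted p for courses that differed was 0.001. isotig115734 of the WRKY31 locus ran with it (Pearson r = 0.90 over the libraries), with medians of 1.32, 1.57, 0.795 and 2.05 CPM at Wiesloch and 1.1, 1.2, 1.59 and 0.749 CPM at Schluchsee (adjusted p = 0.0025 for the courses). With the tree as a block, isotig59298 and isotig115734 also fell at Schluchsee from July to September (-1.03 and -1.33, adjusted p = 0.002 and 0.00027).

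Outside IIb, isotig20888 (adjusted p = 6.2e-05), GAEK01021554.1 (0.018), GAEK01019091.1 (0.02) and GAEK01017428.1 (0.027), the last of the WRKY71 locus, had courses that differed between sites. With the tree as a block GAEK01019091.1 (adjusted p = 0.055) and GAEK01017428.1 were no longer called. With clock time as a covariate GAEK01021554.1 was not called, in a fit with a single Cameron Lake library at Wiesloch in June. The fourth IIb contig was GAEK01014839.1 of the WRKY42 locus (adjusted p = 0.019; 0.19 with the tree as a block). Its value of 11.9 CPM in June came from Salmon Arm tree 15 at Wiesloch, beside a median of 0.749 CPM for the 8 libraries of that site and month.

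Between the sites over all months, with the counts of each tree summed, 7 contigs were higher at Schluchsee, 6 were lower and 29 did not pass, beside 16.9% of all contigs called (8.58% higher and 8.28% lower). The count of 13 fell to 6 without Cameron Lake tree 10 at Schluchsee, to 8 without the 3 libraries whose lowest value is 4, and to 6 without month shares as covariates. By subgroup, 7 of 15 IIc contigs passed, 4 of them higher and 3 lower at Schluchsee. isotig75084 matches WRKY50, a gene that in Arabidopsis takes part in the repression of jasmonate signalling. Its 12 trees at Wiesloch had a lowest, median and highest level of 0.761, 1.94 and 6.01 CPM, and its 13 trees at Schluchsee 0.871, 6.07 and 13.7 CPM (log2 fold change 1.47, SE 0.40, adjusted p = 0.014). GAEK01021554.1 of IIe was higher at Schluchsee, with 11.9, 17.3 and 25.8 CPM beside 8.55, 12.5 and 15.1 CPM at Wiesloch (0.62, SE 0.12, adjusted p = 0.0016). The trees of the sites overlapped in both contigs.

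isotig28511 and isotig28512 of the WRKY74 locus (0.89, SE 0.26, adjusted p = 0.024, and 0.79, SE 0.24, adjusted p = 0.026), isotig113775 and GAEK01036432.1 of the WRKY57 locus (1.35 and 0.87) and GAEK01010510.1 (0.42) were the others higher at Schluchsee. Lower at Schluchsee were isotig11470 and isotig11471 of the WRKY50 and WRKY51 loci (-0.50, SE 0.12, adjusted p = 0.0065, and -0.47, SE 0.12, adjusted p = 0.012), both described as WRKY51-like like isotig75084. isotig20888 (-0.42), GAEK01033457.1 (-1.18), GAEK01014839.1 (-1.65) and isotig57504 (-1.06) were also lower. GAEK01014839.1 lost its call without Salmon Arm tree 15 at Wiesloch, where the value became -1.10. This contig lay at or below the most frequent low value of the library in 15 of the 75 libraries. The calls of isotig57504 and GAEK01010510.1 were lost without any of 15 and 9 of the 25 trees. Without month shares as covariates these 2, GAEK01014839.1, isotig20888, isotig113775, isotig28511 and isotig28512 lost their calls (adjusted p between 0.053 and 0.2). The IIc subgroup thus split between the sites, even among contigs of the WRKY50 locus.

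Split by month, the count of contigs that differed between sites was highest in July. In May 0 of 41 contigs tested passed, beside 2.97% of all contigs (1.09% higher and 1.89% lower), with edgeR unadjusted p under 0.05 for 9 and 0 also by DESeq2. In June 3 of 40 were higher at Schluchsee (3.14% of all contigs, 1.57% higher), but the count was 0 without any of 8 trees, rose to 9 without Cameron Lake tree 9 at Schluchsee, and was 12 by DESeq2. In July 12 of 42 were higher at Schluchsee, 4 were lower and 26 did not pass, beside 41.8% of all contigs (21.7% higher and 20.1% lower). In September 4 were higher and 4 lower, beside 8.29% (3.95% higher and 4.34% lower), a count of 8 that became 4 without Cameron Lake tree 10 or Salmon Arm tree 14 at Schluchsee, and 5 without Cameron Lake tree 11 or Salmon Arm tree 13 there or Cameron Lake tree 16 at Wiesloch. The September count was 2 without the 3 libraries whose lowest value is 4, and 14 by DESeq2.

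In July isotig20888 was lower at Schluchsee (-1.11, SE 0.12, adjusted p = 7.2e-07), and the libraries of the sites did not overlap (4.66 to 7.85 CPM beside 9.7 to 19.1 CPM at Wiesloch). GAEK01021554.1 was 2-fold higher (adjusted p = 9.1e-06), without overlap (13.8 to 31.4 CPM beside 7.55 to 11 CPM). isotig57504 of the WRKY28 locus was lower, with a median of 0.348 CPM beside 1.19 CPM (-1.66, SE 0.36, adjusted p = 0.0011). isotig59298 (1.31, SE 0.30, adjusted p = 0.0017) and GAEK01033457.1 (3.24-fold, adjusted p = 0.00081) were higher at Schluchsee in July. In September GAEK01033457.1 was lower there (-2.91, SE 0.35, adjusted p = 0.00011), as was isotig70245, which had been higher in July (1.87 in July and -1.93 in September).

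Between the provenances over all months, 4 contigs were higher in Cameron Lake, 3 were lower and 35 did not pass, beside 10.7% of all contigs called (4.62% higher and 6.11% lower). The count of 7 became 13 without Cameron Lake tree 10 at Schluchsee, and 4 without Salmon Arm tree 12 at Schluchsee, Salmon Arm tree 15 at Wiesloch or the month shares as covariates. isotig120472, of the WRKY20 locus and described as WRKY2-like, had the largest of these 7 differences. Its 13 Salmon Arm trees had a lowest, median and highest level of 0.25, 0.421 and 5.02 CPM, and its 12 Cameron Lake trees 0.323, 2.46 and 4.35 CPM (log2 fold change 1.75, SE 0.45, adjusted p = 0.019; without month shares 1.23, adjusted p = 0.11). The trees overlapped: Salmon Arm tree 16 at Wiesloch was the highest of all, and Cameron Lake tree 9 at Wiesloch stayed between 0.301 and 0.355 CPM in its 4 libraries. WRKY2 acts in pollen development and in seed germination in Arabidopsis.

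isotig46231 of the WRKY35 locus (IIe) was also higher in Cameron Lake, with 5.31, 6.25 and 11.7 CPM beside 1.55, 3.08 and 7.12 CPM in Salmon Arm (0.89, SE 0.23, adjusted p = 0.017). isotig11470 and isotig11471 were higher by 0.39 each (adjusted p = 0.043 and 0.045), calls that were lost without any of 16 and 15 of the 25 trees. Lower in Cameron Lake were isotig75084 (-1.37, SE 0.39, adjusted p = 0.029) and the WRKY7-like pair isotig39431 (-0.55, SE 0.13, adjusted p = 0.013) and GAEK01024881.1 (-0.51, SE 0.13, adjusted p = 0.017). isotig39431 had 12, 14.7 and 20.2 CPM in Cameron Lake trees and 7.35, 20.7 and 34.5 CPM in Salmon Arm trees. Without month shares as covariates isotig39431 and GAEK01024881.1 lost their calls (adjusted p = 0.068 and 0.087). By provenance and site, the median of isotig75084 was 2.41 CPM in Salmon Arm trees at Wiesloch and 10.2 CPM in those at Schluchsee, but 1.53 and 0.983 CPM in Cameron Lake trees, so that by the median its higher level at Schluchsee was in Salmon Arm. isotig11470 and isotig11471 were higher in Cameron Lake and at Wiesloch. No contig passed for an interaction of site and provenance, where edgeR gave an unadjusted p under 0.05 for 0 of 42 and called 0.00% of all contigs.

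Within single months fewer contigs separated the provenances. In May 0 of 41 passed (3.28% of all contigs), with an edgeR unadjusted p under 0.05 for 14, and DESeq2 called 2. In June isotig120472 was higher in Cameron Lake (2.38, SE 0.51, adjusted p = 0.029) as 1 of 40 tested (1.50% of all contigs, 0.442% higher), a call lost without any of 7 of the 17 trees of that month. In July isotig39431 and GAEK01024881.1 were lower (-0.82, SE 0.17, adjusted p = 0.013, and -0.75, SE 0.18, adjusted p = 0.022; 4.26% of all contigs, 2.74% lower), and the count of 2 rose to 4 without Cameron Lake tree 9 at Wiesloch or Salmon Arm tree 9 at Schluchsee and to 6 without Salmon Arm tree 9 at Wiesloch or by DESeq2. In September 0 of 42 passed (1.38%), with an edgeR unadjusted p under 0.05 for 6, and DESeq2 called 3.

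**Figure D4:**
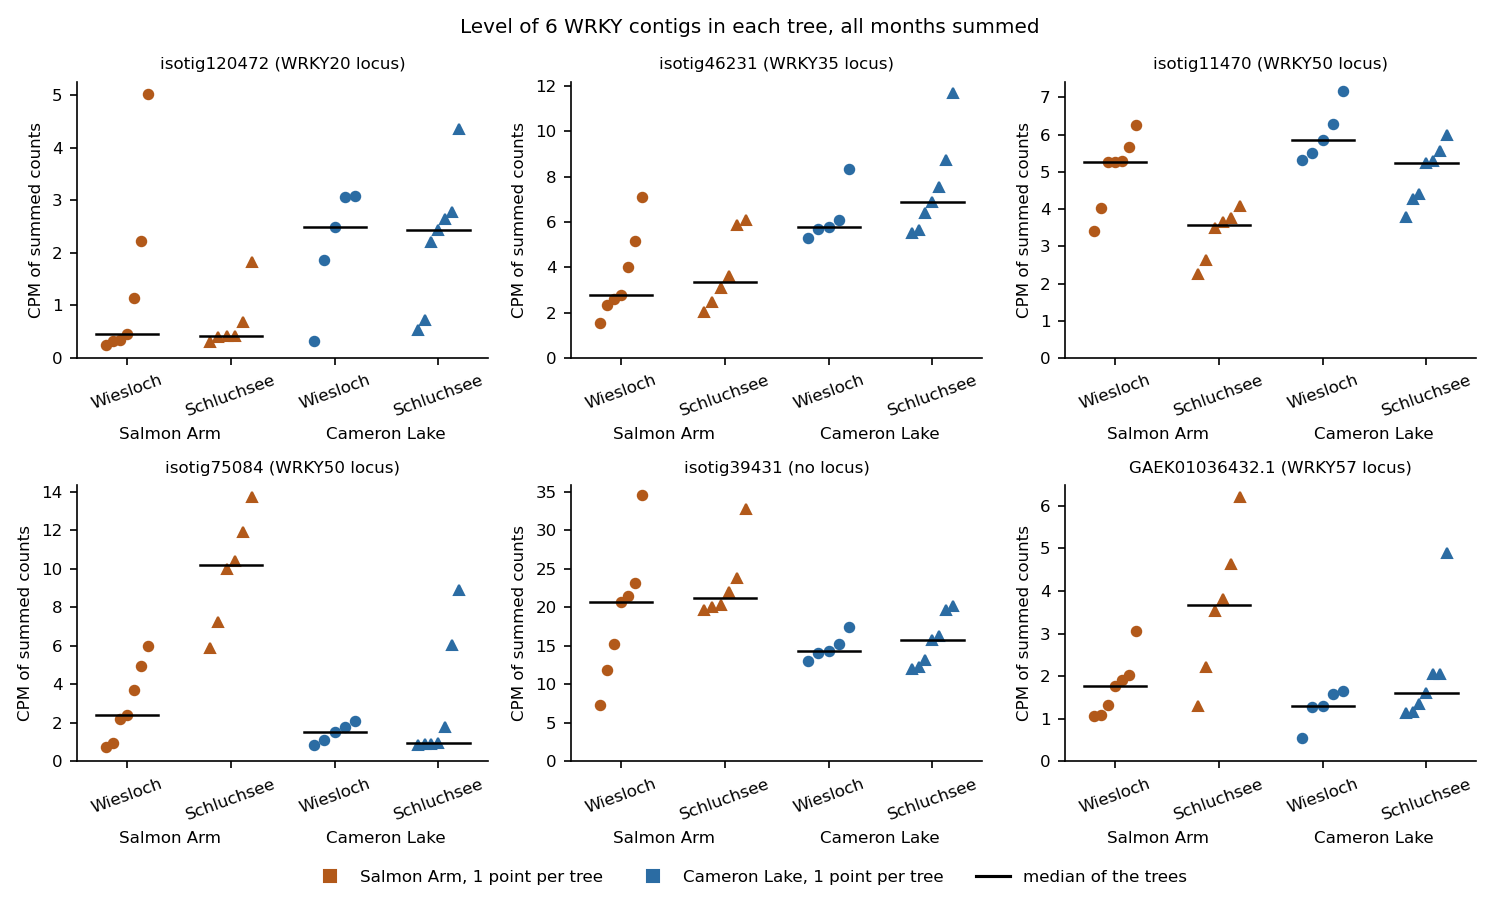
CPM of 6 WRKY contigs in each of the 25 trees, from counts summed over the months of a tree, by provenance and site, with a black bar at the median of the trees. isotig120472 is near 0.421 CPM in most Salmon Arm trees, with a single Salmon Arm tree at 5.02 CPM, and isotig75084 is highest in Salmon Arm trees at Schluchsee.

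The trees of a group differed widely in some members. Of the spread within groups of the same provenance, site and month, the part lying between trees had a median of 62.6% over the members (33.3 to 86.4%), beside 62.7% over all contigs and 35.6% from the degrees of freedom alone. The within-group SD of log2 CPM had a median of 0.63 over the members and 0.54 over all contigs, and ran from 0.19 to 1.83. The widest ranges were in WRKY51-like contigs. isotig28308, which has no locus, stood at 16.7, 31.1, 19.9 and 3.71 CPM in May, June, July and September in Cameron Lake tree 11 at Schluchsee. Cameron Lake tree 15 at the same site had 0.388, 0.53, 0.408 and 0.535 CPM. Salmon Arm tree 11 at Wiesloch had 32.2 CPM in May, 2.06 in July and 9.07 in September, whereas the other Wiesloch libraries of September had at most 1.39 CPM.

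GAEK01031985.1 of the WRKY50 locus and isotig28307 rose and fell with isotig28308 over the libraries (Pearson r = 0.96 and 0.92). The 3 contigs were higher at Schluchsee in July (3.31, 3.10 and 2.94 for GAEK01031985.1, isotig28308 and isotig28307, adjusted p = 0.007, 0.0082 and 0.0065). Without Cameron Lake tree 11 at Schluchsee the values were 1.98, 1.85 and 1.77 and none of the 3 passed. isotig28308 and isotig28307 fell from May to September (-1.66, SE 0.61, adjusted p = 0.029, and -1.57, SE 0.61, adjusted p = 0.041), calls lost with clock time as a covariate (adjusted p = 0.2 and 0.26). isotig28307 lay at or below the most frequent low value of the library in 18 of the 75 libraries, so the size of its changes is uncertain. Over all 861 pairs of members the median Pearson r was 0.15, and 6 pairs lay above 0.9.

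**Figure D5:**
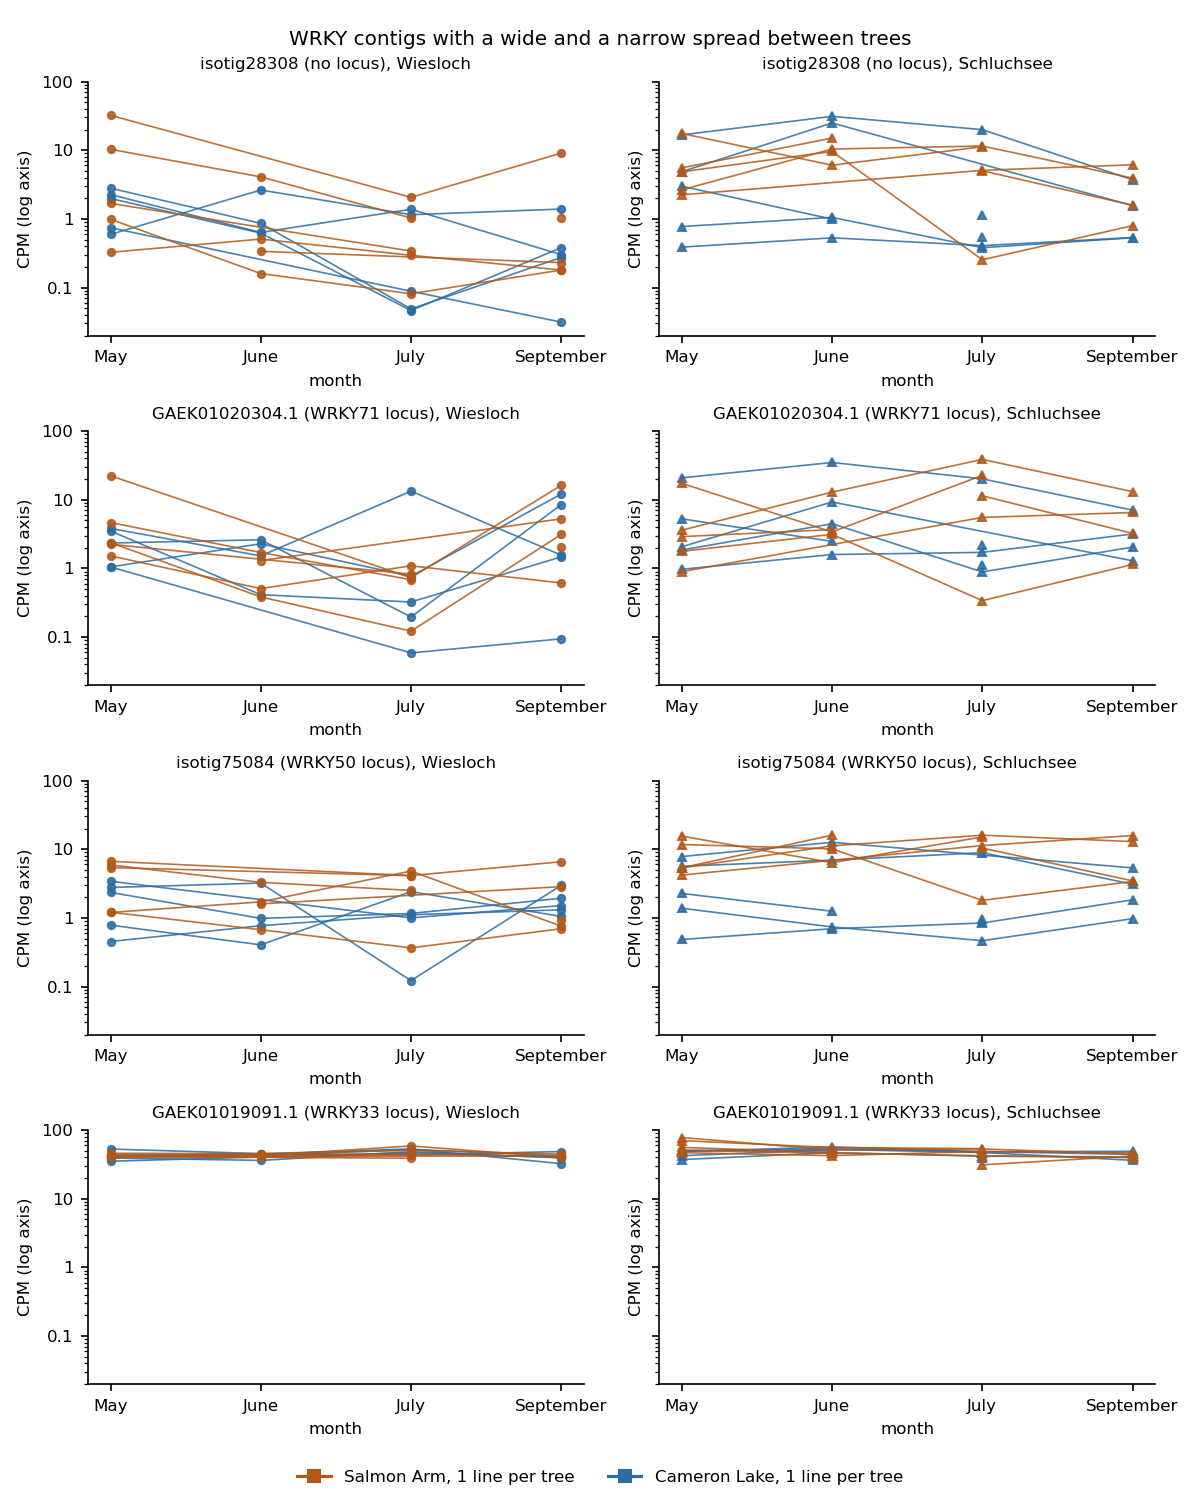
CPM on a log axis by month in each tree (1 line per tree) at Wiesloch (left) and Schluchsee (right) for 3 WRKY contigs with a wide spread between trees and 1, GAEK01019091.1, with a narrow spread. isotig28308 spans from 0.0314 to 32.2 CPM, while GAEK01019091.1 stays between 31.1 and 77.6 CPM.

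Genes that act with WRKY factors were read from lists of Arabidopsis loci, 1 contig per locus. Of 15 immune receptors and kinases 11 were measured: 2 rose from May to June (18.2% called, beside 19.0% of all contigs), 1 fell from June to July (9.09% beside 13.0%), 2 rose and 3 fell from July to September (45.5% beside 32.4%), and 1 rose from May to September (9.09% beside 32.5%). RBOHD, the oxidase that makes the immune oxidative burst, rose from May to June (log2 fold change 0.94, SE 0.16, adjusted p = 1.1e-05) and was lower at Schluchsee in July (-1.32, SE 0.22, adjusted p = 0.0001). MKK1, a kinase of the cascade that signals through WRKY33, was higher there in July (1.57, SE 0.21, adjusted p = 9.2e-06), where 4 of the 11 were higher and 2 lower (54.5% called, beside 41.8% of all contigs). Chitin receptor CERK1 was also higher at Schluchsee in July (0.80, SE 0.16, adjusted p = 0.00049).

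Of 19 salicylate regulators and defence genes 7 were measured, and from July to September 2 fell and none rose (28.6% called, beside 32.4% of all contigs). EDS1, a hub of salicylate defence, fell from July to September (-1.51, SE 0.37, adjusted p = 0.00086), and NPR1, the salicylate co-regulator, rose from May to June (0.44, SE 0.13, adjusted p = 0.011). VQ proteins bind WRKY factors; only VQ4 of 9 was measured, and it fell from May to September (-1.22, SE 0.21, adjusted p = 6.1e-06). Of 10 senescence genes 6 were measured, and from May to September 2 rose and 1 fell (3 of 6, beside 32.5% of all contigs). NAP, a NAC factor of leaf senescence, rose (3.55, SE 0.29, adjusted p = 8.7e-16), while NYC1, an enzyme of chlorophyll b breakdown, fell (-0.78, SE 0.09, adjusted p = 7.1e-10). The NAP contig averaged only 0.362 CPM, where libraries hold few reads, and the NYC1 contig 205 CPM.

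Markers of the needle were read beside these. The 4 measured of 5 mesophyll markers summed to 4961 to 14836 CPM per library, the 3 of 5 guard cell markers to 81 to 215 CPM, the 4 of 5 xylem markers to 10.9 to 70.2 CPM and the 2 of 5 markers of dividing cells to 10.9 to 51 CPM. The mesophyll sum had medians of 11106, 11915, 7403 and 6815 CPM at Wiesloch from May to September, and of 8849, 9328, 8178 and 5675 CPM at Schluchsee. It was lower in September than in May at both sites, as were the medians of isotig20888, GAEK01010510.1 and GAEK01016446.1. At Wiesloch the mesophyll sum was lower in July than in June. There the median of isotig20888 was highest in July, and those of GAEK01010510.1 and GAEK01016446.1 were slightly lower in July than in June. The sum for dividing cells was 30 to 51 CPM at Wiesloch in July and 15.8 to 32 CPM at Schluchsee in July, and the guard cell sums of that month overlapped (92.5 to 150 CPM at Wiesloch and 88.8 to 174 CPM at Schluchsee). Of the 3 guard cell markers, the anion channel SLAC1 was higher at Schluchsee in July (2.61, SE 0.25, adjusted p = 1e-07) and the kinase OST1 lower (-0.57, SE 0.10, adjusted p = 0.0002). The part of these shifts in the WRKY results was not tested.

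A further 19 contigs had a WRKY locus but no WRKY in the description, and they stand outside the counts above. The highest were GAEK01031839.1 of the WRKY20 locus (mean 161 CPM) and GAEK01019153.1 of the WRKY6 locus (93.5 CPM), and 2 matched group III, GAEK01028207.1 of the WRKY41 locus (17.2 CPM) and GAEK01034691.1 of the WRKY53 locus (1.22 CPM). From July to September 3 of the 19 rose and 2 fell (26.3% called, beside 32.4% of all contigs), and from May to September 4 fell and none rose (21.1% beside 32.5%). In July 6 of 16 tested were higher at Schluchsee and 1 was lower (43.8% beside 41.8%). So the description rule leaves out contigs that match some of the same loci.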

How the data were processed

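Values are integer counts of reads for every contig, as deposited by the authors from RNA-seq of total RNA. CASAVA 1.7, Bowtie2 2.1, HTSeq and TAIR10 appear in the submitters' processing notes; their roles are not given in the sources used here. Unescaped tabs lengthen 29654 lines, so the unit of 27 columns is recorded as other; read from the right, the deposited values there are counts like the rest. The smallest count is 1, and among low values the commonest was 2 in 72 libraries and 4 in the remaining 3; whether zeros were raised to it is not given in the sources used here. Contig sequences were not used here.

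Testing was done by edgeR 4.0.16 under R 4.3.3 (its default expression filter, TMM factors 0.897 to 1.11, quasi-likelihood test, Benjamini-Hochberg over all contigs, threshold 0.05), and the scripts were tested on simulated data. An SE is the log2 fold change divided by the square root of F. Month comparisons used means of each provenance, site and month over the 75 libraries (59177 contigs). Site and provenance over all months used counts summed per tree with month shares as covariates (59186 contigs), and single months the libraries of that month (56074, 56547, 56859 and 55572 contigs from May to September). Libraries of a tree are identified by the labels' tree number within provenance and site, and the tree as a block pairs them. Residuals of 89 same-tree pairs of libraries correlated with a median of 0.65 over all contigs (minimum 0.03, 85 pairs over 0.1), beside -0.02 between trees. Over the members alone the median was lower, 0.50 (minimum -0.56, 77 pairs over 0.1), beside -0.03 between trees. Alternatives were the tree as a block, DESeq2 1.42.0, its size factors, other filters, lowest values set to 0, clock time (given for 62 libraries), locus sums, no month shares, 3 libraries left out, and each tree left out. With clock time a single Cameron Lake library remains at Wiesloch in June. A further setting left out the May library of Salmon Arm tree 14 at Wiesloch, and all 85 calls repeated there were kept.

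Contigs named are those called between months, sites or provenances (up to 5 per direction), the 5 most abundant, the 5 with the smallest adjusted p for month by site, and those of known loci; others named to complete a count were chosen after their values were seen. The members and lists were chosen with earlier results of these data known. Library totals limit precision: a contig at 0.305 CPM has about 10.3 reads per library.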

Additional observations from a re-analysis of the deposited data

Results flagged for a closer look

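A value was marked where the highest or lowest library of a site and month stood far from the rest (Dixon's test on log2 CPM at the 95% level). Of 248 such groups of the 31 named contigs, 15 held one, and chance alone marks about 1 in 20. Salmon Arm tree 11 at Wiesloch stood highest in September in 4 contigs: GAEK01027561.1 at 92.9 CPM (next 64.3), GAEK01010510.1 at 21.8 CPM (next 12), GAEK01010509.1 at 19.2 CPM (next 11.3) and GAEK01031985.1 at 4.95 CPM (next 0.862). Salmon Arm tree 15 at Wiesloch stood highest in June in GAEK01036432.1 at 3.17 CPM (next 1.52), isotig70245 at 0.687 CPM (next 0.208) and GAEK01033457.1 at 1.31 CPM (next 0.181), and in July in isotig70245 at 0.418 CPM (next 0.146).

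The other high values were isotig70245 at 1.09 CPM in Salmon Arm tree 14 at Schluchsee in July (next 0.464) and GAEK01033457.1 at 0.166 CPM in Cameron Lake tree 11 at Schluchsee in June (next 0.0662). Low values were GAEK01019091.1 at 32.4 CPM in Cameron Lake tree 9 at Wiesloch in September (next 39.4), isotig115734 at 0.126 CPM in Salmon Arm tree 13 at Wiesloch in June (next 0.699) and at 0.257 CPM in Salmon Arm tree 12 at Schluchsee in June (next 0.861). Further low values were isotig28511 at 0.0463 CPM in Cameron Lake tree 12 at Wiesloch in July (next 0.258) and isotig28512 at 0.306 CPM in Cameron Lake tree 15 at Schluchsee in September (next 0.504).

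The course over the months differed between Wiesloch and Schluchsee in 9 contigs by edgeR's F test of the difference. The adjusted p was 4.5e-07 for GAEK01033457.1, 1.4e-06 for isotig70245, 6.2e-05 for isotig20888, 0.001 for isotig59298, 0.0025 for isotig115734, 0.018 for GAEK01021554.1, 0.019 for GAEK01014839.1, 0.02 for GAEK01019091.1 and 0.027 for GAEK01017428.1. With the tree as a block the last 3 were no longer called, and the other 6 were.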

How the results depend on the processing

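Counts below are of WRKY contigs called. With the tree as a replicate block they were 14 from May to June, 10 from June to July, 17 from July to September, 4, 9 and 15 at Wiesloch (May to June, June to July, May to September), 12, 8, 8 and 12 at Schluchsee, and 20 for month by site. With counts summed per Arabidopsis locus (25 units) they were 3 from May to June, 0, 8 and 4 at Wiesloch (May to June, July to September, May to September), 1, 2 and 3 at Schluchsee (May to June, June to July, May to September), 4 for site, 2 for provenance, 0 for provenance in June, and 9 and 4 for site in July and September. Summing leaves fewer units to call. With a mean CPM of at least 1 they were 6 from July to September, 3 at Schluchsee from June to July, and 5 and 4 for site in June and September. Without a filter the count at Wiesloch from June to July was 2. With clock time as a covariate (62 libraries) the counts were 10 and 2 at Schluchsee from June to July and from July to September. At Wiesloch from June to July that setting cannot be compared, because a single Cameron Lake library remains there in June. DESeq2 gave 2 at Schluchsee from July to September, 12 and 14 for site in June and September, and 2, 6 and 3 for provenance in May, July and September. Without the 3 libraries whose lowest value is 4 the counts were 4 at Schluchsee from May to September, 8 for site and 2 for site in September. Without month shares they were 6 for site and 4 for provenance. Shares of all contigs called are given here only for the main tests and for the tree as a block. The other counts, also those with a tree left out, therefore do not show whether the family moved apart from all contigs. The cause of these moves was not tested.

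Leaving out each of the trees in turn gave 5 to 9 calls from May to June, 1 to 4 from June to July, 7 to 12 from July to September and 11 to 15 from May to September. The same 4 steps ranged over 0 to 2, 1 to 6, 14 to 19 and 6 to 9 at Wiesloch and over 3 to 7, 3 to 6, 1 to 2 and 6 to 8 at Schluchsee. Month by site gave 8 to 11, month by provenance and site by provenance 0 to 0, site over all months 6 to 17 and provenance 4 to 13. By month from May to September, site gave 0 to 0, 0 to 9, 11 to 21 and 4 to 12, and provenance 0 to 2, 0 to 2, 2 to 6 and 0 to 1. Of 131 calls of single named contigs, 84 kept their call without each tree and 47 lost it without at least 1. Over the other settings, 957 of 1043 repeats kept the call, 86 lost it and 0 changed sign; 28 of 85 lost it with clock time as a covariate, 10 of 20 without month shares, 21 of 131 without the 3 libraries whose lowest value is 4, and 7 of 85 with the tree as a block. Depth limits the contigs below about 1 CPM, whose libraries hold few reads.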
